A study of Mus musculus with 22 samples.

Results

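Colon expression of 8 genes was followed, Duox2, Duoxa2, Nos2, Nox1, Noxa1, Noxo1, Cyba and Cybb, which encode the enzymes that make hydrogen peroxide, superoxide and nitric oxide in gut epithelium and in phagocytes, with their partner proteins. The genes were taken by name, 8 of the 23997 genes measured. They were described in 22 colon libraries of wild type BALB/c mice in 4 groups. The HMLS group (n = 4) drank HMLS, a deep sea water sample, for 3 weeks from 5 weeks of age, with 5% dextran sulfate sodium (DSS, a polymer whose injury of the colon lining is a standard mouse model of colitis) in it during the last week. The TM group (n = 5) drank TM, another deep sea water sample, on the same schedule, with DSS at 5% in the last week. The DSS group (n = 5) drank distilled water for the same time, with 5% DSS in the last week. The CON group (n = 8) drank distilled water throughout, without DSS. No group drank a deep sea water without DSS, so an action of HMLS or TM on the uninjured colon was not measured.

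Each of these enzymes makes a reactive molecule on purpose. DUOX2 sits in the apical membrane of gut epithelium and releases hydrogen peroxide toward the lumen, and it reaches the surface only with its maturation factor DUOXA2. NOX1 is the superoxide-producing oxidase of colonic epithelium. It works in the membrane with p22phox, encoded by Cyba, and is switched on by the organizer NOXO1 and the activator NOXA1. NOX2, encoded by Cybb, is the oxidase of neutrophils and macrophages, and it also needs p22phox. NOS2 is the inducible nitric oxide synthase, which makes nitric oxide from arginine in inflamed epithelium and in activated macrophages.

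The libraries held 48089882 to 68733410 reads, of which 82.3% to 92.71% were mapped. Mapped reads made up 89.9% ± 0.762 of reads in HMLS (SD, n = 4), 91.5% ± 1.27 in TM (SD, n = 5), 86.6% ± 2.81 in DSS (SD, n = 5) and 91.0% ± 0.711 in CON (SD, n = 8). The share was lower in DSS than in CON (exact two-sided permutation test, p = 0.00155, adjusted p = 0.0093 over 6 comparisons), and higher in TM than in DSS (p = 0.00794, adjusted p = 0.0238). The 10 epithelial markers (keratins, Epcam, Cdh1, Vil1 and others) summed to 2994 FPKM or more in every library. Smooth muscle and fat markers were also present, so the libraries held RNA of the colon wall as well as of its epithelium. In such bulk tissue, fewer cells of a type and less RNA per cell cannot be told apart.

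Levels are in FPKM, fragments scaled to transcript length and to the mapped library, so that genes can be compared per length. In CON the order of the mean levels was Cyba, Noxa1, Duox2, Noxo1, Duoxa2, Nox1, Cybb and Nos2, at 57.4 ± 9.35, 37.7 ± 5.38, 30.5 ± 15.1, 21.01 ± 2.41, 6.06 ± 5.30, 4.93 ± 2.74, 2.86 ± 1.04 and 0.790 ± 0.516 FPKM (SD, n = 8). Cyba lay above Noxa1, Noxo1 above Duoxa2, and Cybb above Nos2 in all 8 CON libraries. Duoxa2 and Nox1 were not separated, since Duoxa2 was the higher in 4 of 8, and the other neighbours kept their order in 6 of 8. The order was another one in the colitis groups. Duox2 had the highest mean level of the 8 genes in DSS, although Duox2 was above Cyba in only 2 of 5 DSS libraries, and Nos2 lay above Nox1 in all 5 DSS libraries. In TM, Nos2 stood above Cybb in all 5 libraries, while in HMLS Nos2 stood above Cybb in 2 of 4.

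**Figure D1:**
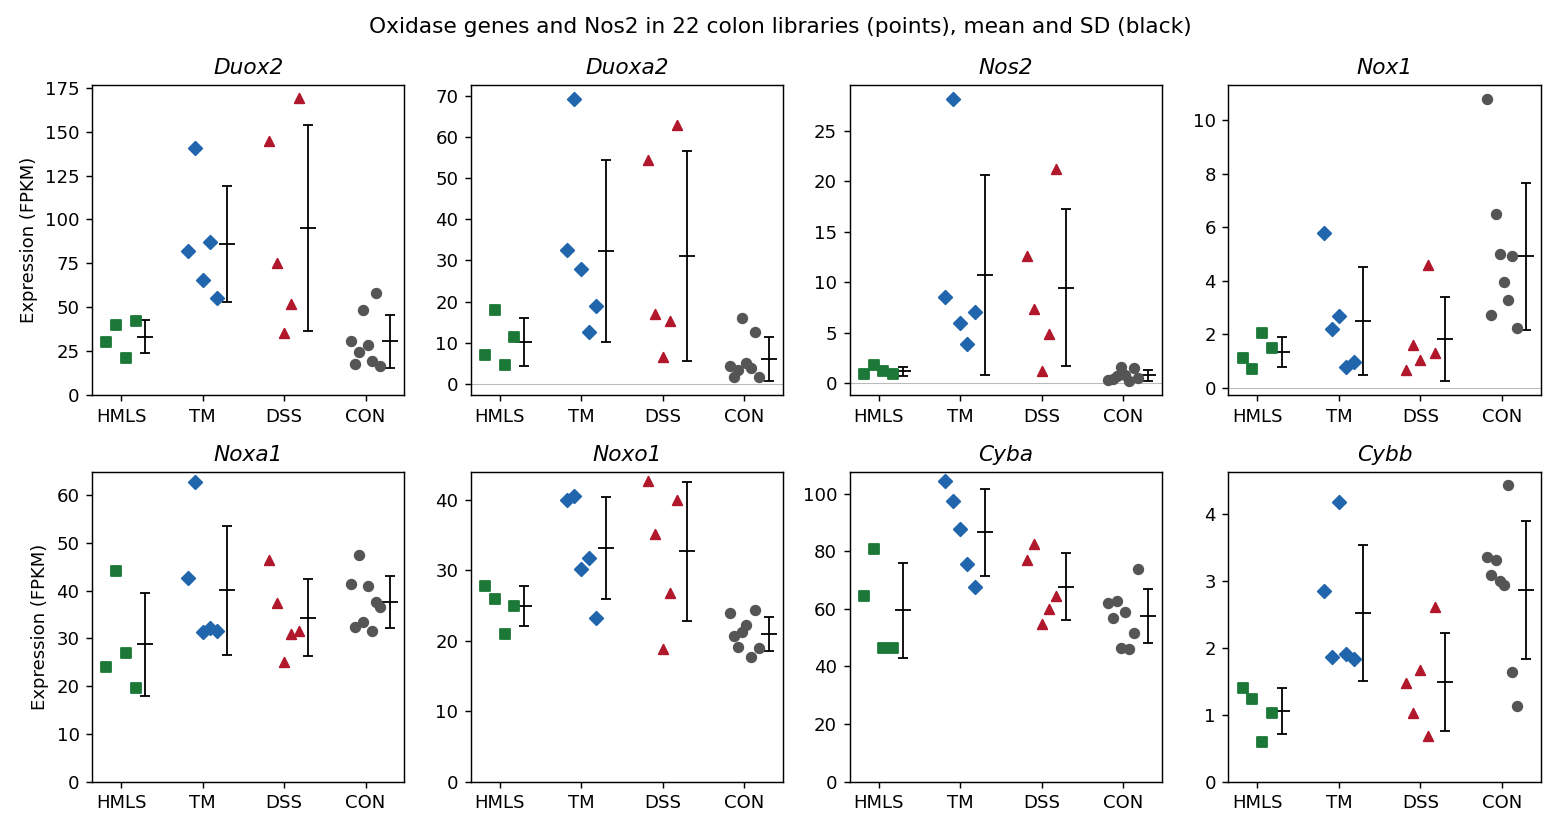
Expression in FPKM (vertical axes, linear) of the 8 genes in each of the 22 libraries, with 1 panel per gene and the groups HMLS, TM, DSS and CON from left to right. Points are libraries and black marks are mean and SD (n = 4, 5, 5 and 8); all 5 TM libraries exceed every CON library for Nos2, and all 4 HMLS libraries lie below every CON library for Nox1.

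Duox2 and Duoxa2 lie head to head on chromosome 2. In GENCODE M21 (build GRCm38) Duox2 occupies chr2:122279247-122298449 on the minus strand and Duoxa2 occupies chr2:122298900-122302885 on the plus strand, so that their starts are 451 bases apart. Their promoter windows are shown because these genes share an intergenic stretch and varied together across libraries. Each window runs from 250 bases before to 50 bases after the start in RefSeq on GRCm38.p6, on the strand of the gene, chr2:122298178-122298477 (minus) for Duox2 and chr2:122298650-122298949 (plus) for Duoxa2. Capitals mark motif matches on either strand.
Duox2: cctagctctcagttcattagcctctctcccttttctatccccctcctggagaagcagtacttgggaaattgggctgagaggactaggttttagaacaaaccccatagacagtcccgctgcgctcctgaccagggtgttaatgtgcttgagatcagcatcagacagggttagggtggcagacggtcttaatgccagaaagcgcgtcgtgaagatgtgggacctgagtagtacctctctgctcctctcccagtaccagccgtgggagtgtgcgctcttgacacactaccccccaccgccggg
Duoxa2: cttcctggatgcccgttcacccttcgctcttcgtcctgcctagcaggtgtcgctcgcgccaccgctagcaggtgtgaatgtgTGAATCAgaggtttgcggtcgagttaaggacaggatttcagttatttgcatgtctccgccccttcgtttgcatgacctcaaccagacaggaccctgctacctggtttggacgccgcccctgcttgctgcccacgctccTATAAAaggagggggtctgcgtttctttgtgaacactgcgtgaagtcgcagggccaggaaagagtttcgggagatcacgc
The core promoter motif TATAAA was found in the Duoxa2 window 30 bases before the start and not in the Duox2 window. It occurred in 13.6% of 32851 mouse promoters of the same length. The letters TGANTCA, an AP-1 motif found in 7.81% of promoters, were present in the Duoxa2 window 168 bases before the start, without overlap of the other match. Neither window held GGGNNNNNCC, a core of NF-kappaB motifs found in 50.8% of promoters, or TTCNNNGAA, a STAT motif found in 8.3%. The RefSeq start of Duox2 used for this window, 122298227, lies 222 bases inside the GENCODE start of 122298449, and 172 bases between both windows are not shown. Such matches describe letters, and binding was not measured.

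Duox2 rose in TM and in DSS relative to CON, while HMLS libraries lay within the range of CON. Duox2 was at 30.0, 40.1, 21.2 and 41.9 FPKM in HMLS libraries, at 82.0, 140.6, 65.7, 87.2 and 55.1 FPKM in TM libraries, at 144.6, 75.1, 35.5, 51.9 and 169.0 FPKM in DSS libraries, and at 16.2 to 58.0 FPKM with a median of 26.5 FPKM in CON libraries. Thus 4 of 5 TM libraries and 3 of 5 DSS libraries, but 0 of 4 HMLS libraries, exceeded the highest CON library. On the log2(FPKM + 1) scale used for all differences, the TM minus CON difference was 1.52 ± 0.305 (SE, limma, adjusted p = 0.00361) and the DSS minus CON difference was 1.51 ± 0.390 (adjusted p = 0.0130), about 2.84-fold for DSS. The HMLS minus CON difference was 0.21 ± 0.320 with a 95% interval of -0.48 to 0.90 (limma, adjusted p = 0.644). All 3 comparisons used the same 8 CON libraries, so they are not independent of each other.

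Duoxa2, the maturation factor, also rose in TM and DSS and was not called in HMLS. Duoxa2 was at 6.99, 17.9, 4.56 and 11.4 FPKM in HMLS libraries, at 32.5, 69.2, 27.8, 12.6 and 18.8 FPKM in TM libraries, at 54.3, 17.0, 6.50, 15.2 and 62.8 FPKM in DSS libraries, and at 1.59 to 15.9 FPKM with a median of 4.09 FPKM in CON libraries. The groups overlapped in each comparison, with 1 of 4 HMLS, 4 of 5 TM and 3 of 5 DSS libraries above every CON library. Duoxa2 rose by 2.32 ± 0.503 in TM (SE, limma, adjusted p = 0.00603) and by 2.07 ± 0.578 in DSS (adjusted p = 0.0198). The HMLS minus CON difference of Duoxa2 was 0.83 (95% interval -0.31 to 1.98, adjusted p = 0.240). The call of Duoxa2 in DSS ended without DSS replicate 7, the highest DSS library, at a difference of 1.71 (adjusted p = 0.0588).

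Within a library, Duox2 was always the higher of the pair. The ratio of Duox2 to Duoxa2 FPKM had a median of 3.98 in HMLS, 2.53 in TM, 3.42 in DSS and 6.38 in CON, and it exceeded 1 in all 22 libraries. After group means were removed from log2 values, Duox2 and Duoxa2 varied together with a Pearson r of 0.917 and a Spearman rho of 0.887 (n = 22, permutation test within groups, adjusted p = 0.00012 and 0.00018 over 6 gene pairs). The Pearson r was 0.886 without the 2 libraries farthest from the median of Duox2, 0.952 among the 8 CON libraries and 0.897 among the 14 colitis libraries. Libraries with more Duox2 than their group mean thus had more Duoxa2 too. Reads of Duoxa2 may include some of Duoxa1, a maturation factor of the related oxidase DUOX1, because 682 of the 1592 exonic bases of Duoxa2 overlap Duoxa1 on the opposite strand. Duoxa1 averaged 0.244 FPKM in HMLS, 0.653 FPKM in TM, 0.572 FPKM in DSS and 0.223 FPKM in CON.

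**Figure D2:**
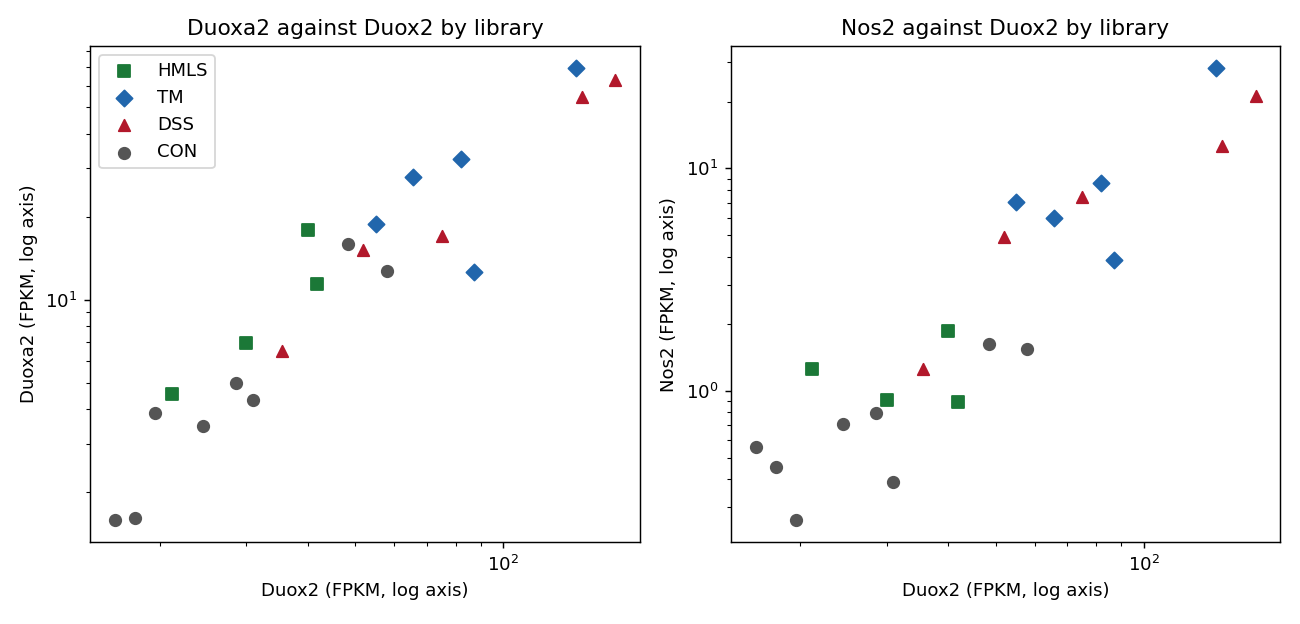
Each point is 1 of 22 libraries, with Duox2 in FPKM on the horizontal axis and Duoxa2 (left) or Nos2 (right) in FPKM on the vertical axis, all on log axes, coloured by group. Duoxa2 climbs with Duox2 across the whole range, and the libraries with the most Nos2, led by 1 TM library at 28.2 FPKM, are also those with the most Duox2.

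Nos2 was scarce in CON colon, rose in TM and DSS, and was not called in HMLS. Nos2 was at 0.911, 1.85, 1.25 and 0.891 FPKM in HMLS libraries, at 8.58, 28.2, 5.99, 3.88 and 7.09 FPKM in TM libraries, at 12.6, 7.41, 1.26, 4.94 and 21.3 FPKM in DSS libraries, and at 0.263 to 1.62 FPKM with a median of 0.633 FPKM in CON libraries. All 5 TM libraries exceeded every CON library, as did 4 of 5 DSS libraries and 1 of 4 HMLS libraries. Nos2 rose by 2.46 ± 0.339 in TM (SE, limma, adjusted p = 0.000411) and by 2.22 ± 0.409 in DSS (adjusted p = 0.00231), which is 4.66-fold for DSS on this scale. The HMLS minus CON difference of Nos2 was 0.34 (95% interval -0.09 to 0.77, adjusted p = 0.204). Nos2 passed the filter of at least 1 FPKM in at least 4 libraries only through the colitis libraries, so these calls are given as a description. Without the filter on low values the adjusted p was 0.000582 in TM and 0.00389 in DSS (limma). Adding 1 FPKM before the logarithm understates changes of a gene this low. Of all genes tested, 4.66% lay in TM above CON without overlap.

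Nos2 also followed Duox2 within groups. The Pearson r of both genes was 0.787 and the Spearman rho 0.679 (n = 22, permutation test within groups, adjusted p = 0.00033 and 0.009 over 6 pairs). It was 0.674 without the 2 libraries farthest in Duox2, 0.846 in CON and 0.829 in the colitis libraries. The other members were not tested against Duox2, and their r with it is a description (n = 22). That r was 0.809 for Noxo1, 0.427 for Noxa1, 0.159 for Cyba, 0.128 for Cybb and 0.0452 for Nox1. Noxo1 also had an r of 0.744 with Nos2 and 0.705 with Duoxa2. The TM library with the most Nos2, replicate 5, also had the most Duox2 and Duoxa2 of its group, and the same held for DSS replicate 7 in its own group.

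Nox1, the catalytic subunit of the colonic superoxide oxidase, fell in HMLS and DSS. Nox1 was at 1.12, 0.711, 2.05 and 1.49 FPKM in HMLS libraries, at 5.79, 2.205, 2.71, 0.780 and 0.986 FPKM in TM libraries, at 0.689, 1.59, 1.03, 4.59 and 1.31 FPKM in DSS libraries, and at 2.23 to 10.8 FPKM with a median of 4.45 FPKM in CON libraries. All 4 HMLS libraries lay below every CON library, against 3 of 5 TM and 4 of 5 DSS libraries, and 7.21% of all genes tested lay in HMLS below CON without overlap. Nox1 fell by 1.26 ± 0.285 on the log2 scale in HMLS (SE, limma, adjusted p = 0.00483) and fell by 1.08 ± 0.313 in DSS (adjusted p = 0.0204). In HMLS and in TM against CON, Nox1 passed the filter of at least 1 FPKM in at least 4 libraries only through CON, where it was high. Its HMLS call is therefore given as a description. Without the filter on low values the adjusted p in HMLS was 0.00851 (limma). In TM the difference of -0.82 did not pass (limma, adjusted p = 0.0896), but it passed without TM replicate 3, the library with the most Nox1, at -1.10 (adjusted p = 0.0169). The differences of Nox1 among the colitis groups themselves did not pass (limma, adjusted p of 0.748 or more).

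Noxo1, the organizer that NOX1 needs, rose in TM and DSS, where its partner Nox1 had lower means than in CON. Noxo1 was at 27.7, 25.9, 20.96 and 25.0 FPKM in HMLS libraries, at 39.9, 40.5, 30.1, 31.7 and 23.3 FPKM in TM libraries, at 42.7, 35.1, 18.8, 26.7 and 39.9 FPKM in DSS libraries, and at 17.6 to 24.3 FPKM with a median of 20.9 FPKM in CON libraries. Above the highest CON library lay 3 of 4 HMLS, 4 of 5 TM and 4 of 5 DSS libraries. Noxo1 rose by 0.61 ± 0.124 in TM (SE, limma, adjusted p = 0.00331) and by 0.56 ± 0.162 in DSS (adjusted p = 0.0199). In HMLS the difference of 0.23 did not pass (limma, adjusted p = 0.101), but it passed without HMLS replicate 7, at 0.31 (adjusted p = 0.0445). The DSS call ended without DSS replicate 7, at 0.48 (adjusted p = 0.0614).

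The annotation limits what the Noxo1 value can carry. Of the 3013 exonic bases of Noxo1, 2122 overlap Tbl3, a gene on the opposite strand, and the sources used here do not say whether the authors' counting used strand. Tbl3 was lower in the colitis groups, at 7.72 ± 1.32 FPKM in HMLS, 8.24 ± 1.73 FPKM in TM, 7.76 ± 1.89 FPKM in DSS and 11.5 ± 2.75 FPKM in CON (SD). Tbl3 fell by 0.51 in HMLS, by 0.43 in TM and by 0.51 in DSS (limma, adjusted p = 0.0240, 0.0467 and 0.0300). These Tbl3 calls ended without single libraries, in DSS without CON replicates 1, 3 or 5 or DSS replicates 5, 6 or 7 (-0.45 to -0.48), in HMLS without HMLS replicates 3 or 8 (-0.41 and -0.50), and in TM without any of CON replicates 1 to 5 or TM replicates 5 to 8 (-0.36 to -0.45). The shorter overlaps of Nox1 with Cstf2 (399 of 3307 exonic bases) and of Noxa1 with Entpd8 (50 of 1617), both on the opposite strand, cover a small share of each gene.

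Noxa1, the activator, did not pass in any comparison, and in HMLS against CON this depended on the setting. Noxa1 was at 24.0, 44.2, 27.0 and 19.7 FPKM in HMLS libraries, at 42.6, 62.7, 31.4, 32.1 and 31.5 FPKM in TM libraries, at 46.4, 37.4, 25.1, 31.0 and 31.6 FPKM in DSS libraries, and at 31.7 to 47.4 FPKM with a median of 37.0 FPKM in CON libraries. Its differences from CON were -0.43 in HMLS (limma, adjusted p = 0.0613), 0.04 in TM (0.855) and -0.15 in DSS (0.433). The HMLS value rested on replicate 6, the only HMLS library inside the CON range, and without that library it was -0.65 (adjusted p = 0.00376). It also passed after upper quartile scaling, at -0.53 (limma, adjusted p = 0.0249), and with the share of mapped reads as a covariate, at -0.69 (adjusted p = 0.0228). The TM value was -0.13 without TM replicate 5.

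The ratios of the NOX1 complex messages had higher medians in the colitis groups than in CON, and the difference was not tested. The ratio of Noxo1 to Nox1 FPKM ran from 10.2 to 36.4 with a median of 20.8 in HMLS, from 6.89 to 40.6 with a median of 18.4 in TM, from 5.83 to 62.0 with a median of 22.1 in DSS, and from 2.22 to 8.49 with a median of 5.16 in CON. HMLS did not overlap CON in this ratio, while TM and DSS did. The ratio of Noxa1 to Nox1 ran from 13.2 to 62.2 with a median of 17.3 in HMLS, from 7.36 to 41.1 with a median of 28.4 in TM, from 6.76 to 67.4 with a median of 24.2 in DSS, and from 3.84 to 16.4 with a median of 8.63 in CON. All 3 colitis groups overlapped CON in it. Both ratios exceeded 1 in all 22 libraries, so the message of the catalytic subunit was the scarcest of these. Within groups Nox1 was not correlated detectably with Noxo1 (r = 0.166), Noxa1 (0.113) or Cyba (0.0313), with adjusted p of 0.903 each (n = 22, permutation test within groups, over 6 pairs). With Cyba, the sign turned to -0.0303 without the 2 libraries farthest in Nox1.

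Cyba, which encodes the p22phox subunit shared by NOX1 and NOX2, rose in TM and was not called in HMLS or DSS. Cyba was at 64.4, 80.7, 46.4 and 46.5 FPKM in HMLS libraries, at 104.6, 97.3, 87.8, 75.7 and 67.4 FPKM in TM libraries, at 77.2, 82.6, 54.7, 59.9 and 64.5 FPKM in DSS libraries, and at 46.1 to 74.0 FPKM with a median of 57.9 FPKM in CON libraries. The rise in TM was 0.58 ± 0.131 (SE, limma, adjusted p = 0.00555), with 4 of 5 TM libraries above every CON library. The DSS minus CON difference was 0.23 (limma, adjusted p = 0.192) and the HMLS minus CON difference 0.03 (0.903). The TM minus DSS difference of Cyba was 0.35 and did not pass (limma, adjusted p = 0.99996), so a response of Cyba in TM that differs from DSS was not shown. The TM call ended in the fit with both a replicate block and the share of mapped reads, at 0.53 (limma, adjusted p = 0.0707). The sign of the HMLS value turned with upper quartile scaling, to -0.07.

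Cybb, the NOX2 subunit of phagocytes, fell in HMLS and, by a margin that single libraries decided, in DSS. Cybb was at 1.39, 1.23, 0.599 and 1.02 FPKM in HMLS libraries, at 2.85, 1.87, 4.17, 1.91 and 1.83 FPKM in TM libraries, at 1.47, 1.02, 1.67, 0.686 and 2.62 FPKM in DSS libraries, and at 1.13 to 4.44 FPKM with a median of 3.04 FPKM in CON libraries. The groups overlapped in all 3 comparisons with CON, with 2 of 4 HMLS and 2 of 5 DSS libraries below the lowest CON library and no TM library there. Cybb fell by 0.87 ± 0.215 on the log2 scale in HMLS (SE, limma, adjusted p = 0.00714) and fell by 0.63 ± 0.223 in DSS (adjusted p = 0.0481), while the TM difference was -0.12 (0.701). In HMLS against CON, Cybb passed the filter of at least 1 FPKM in at least 4 libraries only through CON, where it was high. Its HMLS call is therefore given as a description. Without the filter on low values the adjusted p in HMLS was 0.0130 (limma). The DSS call ended when any of CON replicates 1 to 6 or DSS replicates 1, 2, 5 or 6 was left out, at differences of -0.50 to -0.66 (adjusted p 0.0622 to 0.118). It also ended with a pseudocount of 0.1 FPKM (adjusted p = 0.0505) and without the filter on low values (0.0718).

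Cybb moved with markers of macrophages. The 12 macrophage and monocyte markers in the table, such as Csf1r, Lyz2 and the complement genes C1qa and C1qc, summed to 56.6 to 130.3 FPKM in HMLS, 160.0 to 237.8 FPKM in TM, 73.8 to 165.1 FPKM in DSS and 93.2 to 211.5 FPKM in CON. In HMLS against CON 6 of these 12 fell and none rose, in TM 2 rose and 1 fell, and in DSS 1 rose and 3 fell (limma, adjusted over all genes). Over all genes tested, 17.5% rose and 16.6% fell in HMLS, 14.3% and 11.8% in TM, and 14% and 13.1% in DSS. The TM counts lie near these shares. Within groups Cybb had an r of 0.835 with the summed macrophage markers (n = 22, a description). No macrophage marker was at 0 in every library of a group. Cx3cr1 was under 1 FPKM in every HMLS library and passed the filter there only through CON. The part of macrophage number in the fall of Cybb was not tested. B cell markers, of which 8 were in the table, summed to 0.677 to 6.32 FPKM in HMLS, 6.26 to 31.2 FPKM in TM, 2.50 to 15.2 FPKM in DSS and 4.22 to 59.0 FPKM in CON, and their r with Cybb was 0.535. Their part was not tested either.

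**Figure D3:**
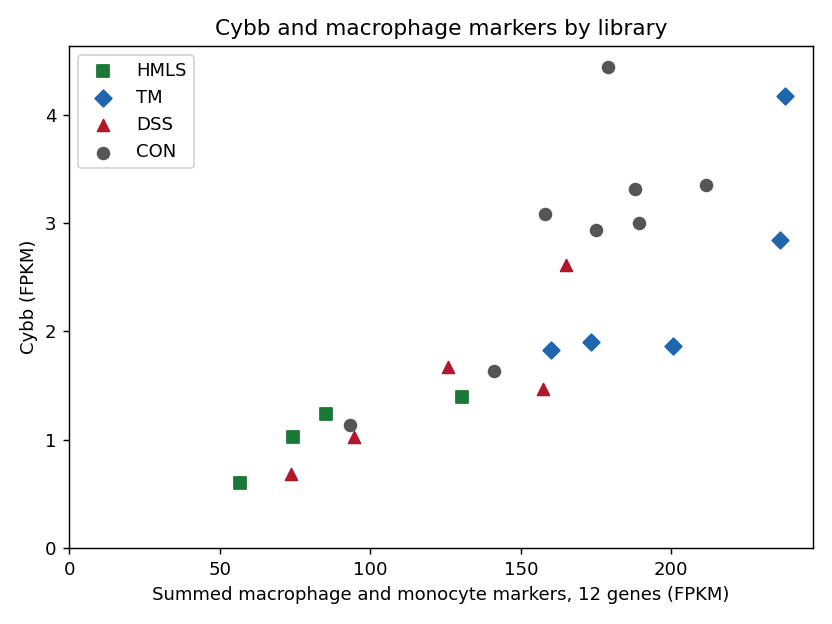
Cybb (vertical axis, FPKM) against the summed FPKM of 12 macrophage and monocyte markers (horizontal axis) in each of the 22 libraries, coloured by group. HMLS libraries lie at the lower left, from 56.6 to 130.3 FPKM of markers, and the CON and TM libraries extend to the upper right.

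Neutrophils carry NOX2 too. The 12 neutrophil markers in the table summed to 2.62 to 26.7 FPKM in HMLS, 6.395 to 101.3 FPKM in TM, 3.23 to 77.9 FPKM in DSS and 1.17 to 2.89 FPKM in CON, where each of the 12 stayed under 1 FPKM in every library. A marker could thus pass the filter only through a colitis group, and no count of called markers is given. Elane, which encodes neutrophil elastase, was at 0 in every HMLS, TM and CON library, and Camp was at 0 in every DSS library. The r of Cybb with this sum within groups was 0.596. The ratio of Cyba to Cybb FPKM had a median of 55.8 in HMLS, 36.9 in TM, 52.5 in DSS and 18.8 in CON. Within groups Cyba and Cybb were not correlated detectably (r = -0.028, n = 22, permutation test within groups, adjusted p = 0.903), and r was 0.127 without the 2 libraries farthest in Cybb.

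Markers of other cells were described too, and their part in the oxidase values was not tested. Over all genes tested, 17.5% rose and 16.6% fell in HMLS, 14.3% and 11.8% in TM, and 14% and 13.1% in DSS. Of 10 epithelial markers, 3 rose and none fell in each comparison with CON, and their sum had an r of 0.481 with Noxo1 and 0.46 with Cyba within groups. Of 7 surface colonocyte markers, none passed in HMLS, 2 fell in TM, and 2 rose and 1 fell in DSS, and their sum had an r of -0.533 with Duox2. Of 7 smooth muscle markers none passed in HMLS, 4 fell in TM and 3 fell in DSS. Of 6 adipose markers tested, 1 fell in HMLS, 6 in TM and 6 in DSS. B cell markers fell in 5 of 8 in HMLS, 1 of 8 in TM and 3 of 8 in DSS, and the 4 eosinophil markers in the table stayed under 1 FPKM in every library. The adipose count in HMLS and the B cell count in TM lie near the shares over all genes. Of the 8 B cell markers, 6 stayed under 1 FPKM in every HMLS library and passed the filter there only through CON. The B cell count in HMLS therefore supports nothing. The B cell marker Cr2 in DSS, and the B cell marker Fcer2a and adipose marker Plin1 in TM, passed only through CON too.

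Counted over the 8 genes, 6 passed in DSS against CON, 4 higher (Duox2, Duoxa2, Nos2, Noxo1) and 2 lower (Nox1, Cybb). Of the 13483 genes tested in that comparison 27.1% passed, 14% higher and 13.1% lower. In TM against CON 5 passed, all higher (Duox2, Duoxa2, Nos2, Noxo1, Cyba), where 26% of 13485 genes passed and 14.3% were higher. In HMLS against CON 2 passed, both lower (Nox1, Cybb), where 34.1% of 13400 genes passed and 16.6% were lower, a share that 2 of 8 does not set apart. The median difference of the 8 genes was 0.12 in HMLS, 0.60 in TM and 0.40 in DSS, beside medians of 0.00, 0.01 and -0.01 over all genes tested. All 8 passed the filter of at least 1 FPKM in at least 4 libraries in each comparison, but Nos2 only through the colitis libraries, since 2 CON libraries reached 1 FPKM. In HMLS against CON, Nox1 and Cybb passed it only through CON, since each was under 1 FPKM in an HMLS library. Nox1 also passed it only through CON in TM against CON. The places of these genes in the counts and medians of those comparisons therefore support nothing. The split over all genes depended on scaling. Called genes numbered 2339 higher and 2226 lower in HMLS, 1924 and 1586 in TM and 1889 and 1766 in DSS, and after upper quartile scaling 1639 higher and 3098 lower in HMLS, 1438 and 2263 in TM and 1337 and 2646 in DSS.

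**Figure D4:**
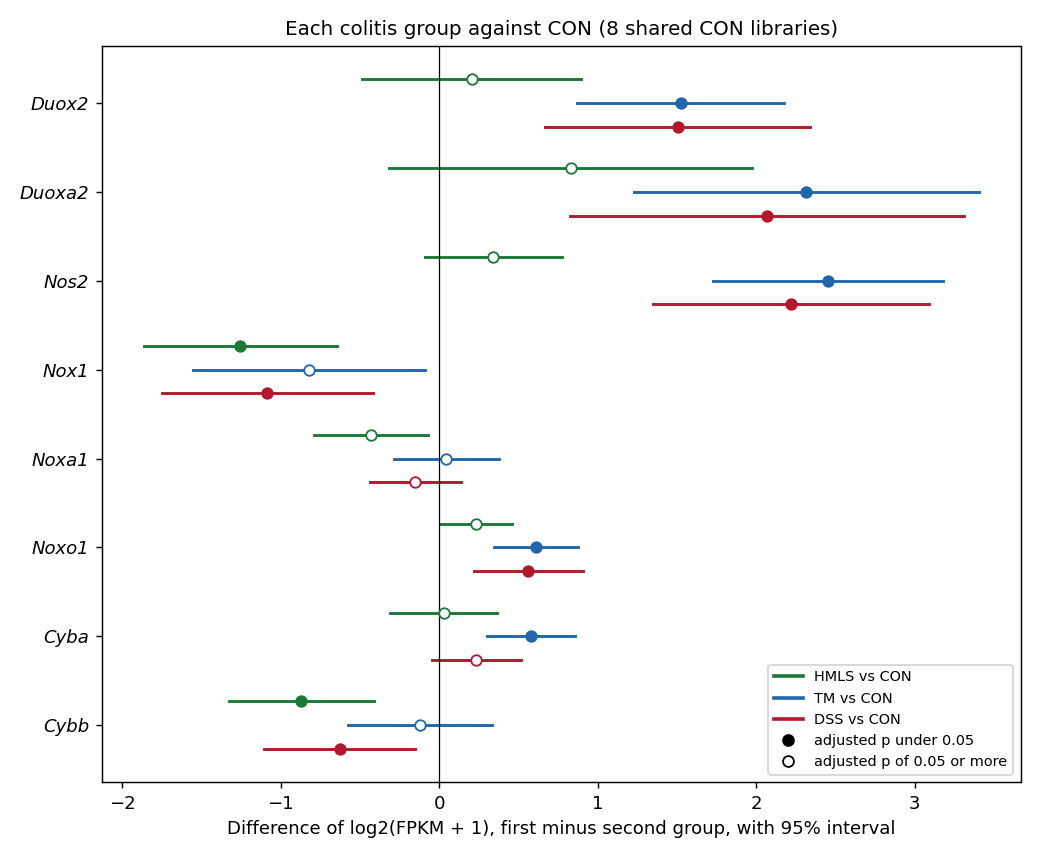
Differences of log2(FPKM + 1) from CON (horizontal axis) of the 8 genes in HMLS, TM and DSS, with 95% intervals; filled points passed at an adjusted p under 0.05. Duox2, Duoxa2 and Nos2 lie right of 0 in TM and DSS, at 1.51 to 2.46, and Nox1 lies left of 0 in all 3 groups, at -0.82 to -1.26, although its TM value did not pass.

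The share of mapped reads ran with the DSS group. With that share as a covariate, no member passed in DSS against CON, at differences of 0.68 for Duox2, 0.89 for Duoxa2, 1.17 for Nos2, 0.34 for Noxo1, -1.75 for Nox1 and -0.84 for Cybb (limma, adjusted p 0.141 to 0.632). The signs of all 6 were kept, and 26 of all genes passed. The mapped share and the DSS group cannot be told apart, since every DSS library was below every CON library in it. In TM, whose mapped share did not differ detectably from CON (exact permutation test, p = 0.364), the same 5 members passed with the covariate, Duox2 at 1.73 (limma, adjusted p = 0.000540) and Nos2 at 2.71 (4.6e-05). The limit that the filter sets on the Nos2 call, given above, holds here too. In HMLS 3 members passed with it, all lower, Nox1 at -1.61, Noxa1 at -0.69 and Cybb at -0.91 (limma, adjusted p = 0.00745, 0.0228 and 0.0337). The signs of Duox2, Duoxa2 and Cyba turned there, to -0.51, -0.21 and -0.06. For Nox1 and Cybb in HMLS, the limit of the filter given above holds with the covariate as well.

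Among the 3 colitis groups no gene passed. Of 13341 genes tested by limma with all 3 groups in one fit, 0 passed in HMLS against TM, 0 in HMLS against DSS and 0 in TM against DSS (0% each), while 1260, 740 and 367 had an unadjusted p under 0.05 (9.44%, 5.55% and 2.75%). Duox2 and Nos2 were among those with a small unadjusted p in both HMLS comparisons. For Duox2 the HMLS minus TM difference was -1.32 (unadjusted p = 0.00557, adjusted p = 0.437) and the HMLS minus DSS difference -1.30 (0.00611, adjusted 0.849), with 95% intervals that lay below 0. For Nos2 these were -2.11 (unadjusted p = 0.00225, adjusted p = 0.407) and -1.88 (0.00518, adjusted 0.849). All 4 HMLS libraries were below every TM library for Duox2, Nos2 and Cybb, where 2.2% of all genes had HMLS below TM without overlap. Not every HMLS library reached 1 FPKM for Nos2 or Cybb. Both passed the filter in this fit only through TM and DSS, where their means were higher. The values of Nos2 and Cybb among the colitis groups are therefore given as a description. After correction over all genes neither Duox2 nor Nos2 passed in these comparisons.

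The other 6 genes did not pass among the colitis groups either. Duoxa2 differed by -1.49 in HMLS against TM (limma, adjusted p = 0.494) and by -1.24 against DSS (0.849). Cyba and Cybb were lower in HMLS than in TM by unadjusted p, at -0.55 and -0.75 (unadjusted p = 0.00964 and 0.00644, limma, adjusted p = 0.437 each). Nox1, Noxa1 and Noxo1 differed between HMLS and either group by -0.17 to -0.47, with limma adjusted p of 0.552 or more. The TM minus DSS differences were 0.02 for Duox2, 0.25 for Duoxa2, 0.24 for Nos2 and 0.26 for Nox1 (limma, adjusted p = 0.99996 each). That of Cybb was the largest of the 8, at 0.51 with a 95% interval of 0.03 to 0.98 (unadjusted p = 0.0382, limma, adjusted p = 0.99996). The widths of the intervals show that these groups could still differ: that of Nos2 in TM against DSS ran from -0.92 to 1.39. With DSS replicate 6 left out, the Nox1 difference of HMLS from DSS changed sign, to 0.11.

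**Figure D5:**
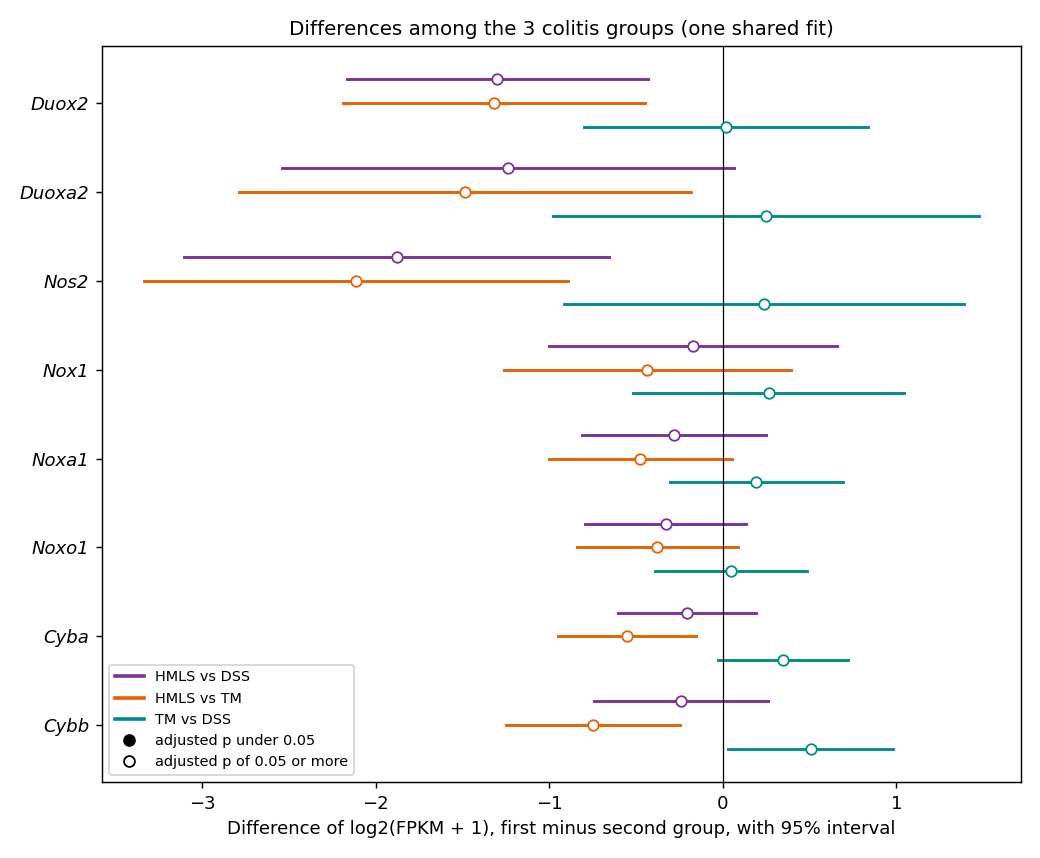
Differences of log2(FPKM + 1) of the 8 genes between the 3 colitis groups (horizontal axis), with 95% intervals, as HMLS minus DSS, HMLS minus TM and TM minus DSS. All points are open because no adjusted p was under 0.05; the HMLS intervals of Duox2 and Nos2 lie left of 0 and the TM minus DSS intervals of both span 0.

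Partner genes of the oxidases were counted from a list of 12, of which 11 were in the table. They include the cytosolic NOX2 subunits p47phox (Ncf1) and p40phox (Ncf4), the small GTPases Rac1 and Rac2, and the related oxidase Duox1. In HMLS against CON 1 of 7 tested rose and 3 fell, in TM 2 of 8 rose and none fell, and in DSS 2 of 8 rose and none fell. Over all genes tested, 17.5% rose and 16.6% fell in HMLS, 14.3% rose in TM and 14% rose in DSS. Among those that fell in HMLS, Ncf1 and Ncf4 passed the filter only through CON, so that count supports nothing. Rac1, which serves NOX1 and NOX2, rose in all 3, by 0.75 ± 0.122 in HMLS, 0.48 ± 0.1002 in TM and 0.67 ± 0.108 in DSS (SE, limma, adjusted p = 0.000700, 0.00403 and 0.00119). Duox1, the other gene counted as higher in TM and DSS, passed the filter there only through the colitis libraries and was not tested in HMLS, so its calls support nothing. It was low, at 0.707 ± 0.169 FPKM in HMLS, 1.59 ± 0.646 FPKM in TM, 1.67 ± 0.796 FPKM in DSS and 0.723 ± 0.306 FPKM in CON (SD, n = 4, 5, 5 and 8). The differences from CON were 0.57 in TM and 0.60 in DSS, and the calls ended without TM replicate 5 (0.45, limma, adjusted p = 0.0505) and without DSS replicate 7 (0.49, adjusted p = 0.0668).

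In HMLS 3 partners of NOX2 in phagocytes fell beside Cybb. Ncf4 was at 0.984 ± 0.398 FPKM in HMLS and 2.66 ± 0.822 FPKM in CON, Ncf1 at 1.26 ± 0.567 FPKM in HMLS and 2.87 ± 0.944 FPKM in CON, and Rac2, a GTPase of blood cells, at 1.56 ± 0.217 FPKM in HMLS and 4.36 ± 2.08 FPKM in CON (SD, n = 4 and 8). They fell by 0.87, 0.76 and 0.96 on the log2 scale (limma, adjusted p = 0.00249, 0.00899 and 0.0135). By their means and SDs, Ncf4 and Ncf1 were each under 1 FPKM in an HMLS library. Both thus passed the filter only through CON, where they were high, as did Cybb. These calls are therefore given as a description. With a replicate block the calls of Ncf1 (-0.61) and Rac2 (-0.82) ended (limma, adjusted p = 0.0761 and 0.0873). With the block and the share of mapped reads together, that of Ncf4 ended too (-0.82, adjusted p = 0.236). The macrophage markers of the HMLS libraries, given above, were lower too, and their part was not tested.

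Nitric oxide synthesis and arginine supply was described by 19 genes, 16 of them tested. In HMLS 2 rose and 2 fell, in TM 2 rose and 2 fell, and in DSS 3 rose and 3 fell, with median differences of -0.04, 0.11 and 0.10. Over all genes 17.5% rose and 16.6% fell in HMLS, 14.3% and 11.8% in TM, and 14% and 13.1% in DSS, shares that the counts of this list lie near. Arg2, the mitochondrial arginase that competes with NOS2 for arginine, rose by 1.73 ± 0.290 in HMLS, 1.38 ± 0.320 in TM and 1.29 ± 0.199 in DSS (SE, limma, adjusted p = 0.00107, 0.00750 and 0.00102). Its level was 49.3 ± 23.5 FPKM in HMLS, 39.9 ± 21.6 FPKM in TM, 33.8 ± 13.8 FPKM in DSS and 12.6 ± 2.31 FPKM in CON (SD). Unlike Nos2, Arg2 thus passed in all 3 comparisons with CON. With the share of mapped reads as a covariate, the DSS call of Arg2 ended, at 1.05 (limma, adjusted p = 0.170). Otc, the urea cycle enzyme ornithine transcarbamylase, fell by 0.94 in HMLS, by 1.09 in TM and by 1.06 in DSS (limma, adjusted p = 0.00136, 0.000291 and 0.00167).

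The cationic amino acid transporter Slc7a1, which carries arginine into cells, rose by 0.44 in HMLS, 0.37 in TM and 0.49 in DSS (limma, adjusted p = 0.0157, 0.0226 and 0.00663). Its calls ended without HMLS replicate 3 (0.32, adjusted p = 0.0601) and without TM replicate 5 (0.29, adjusted p = 0.0706). Ddah2, which degrades the methylarginines that inhibit nitric oxide synthases, fell by 0.60 in HMLS, by 0.50 in TM and by 0.53 in DSS (limma, adjusted p = 0.0152, 0.0291 and 0.0141). The Ddah2 calls ended without HMLS replicate 3 (-0.49, adjusted p = 0.0543), and in TM without CON replicates 3, 4 or 5 or TM replicates 5, 7 or 8 (-0.43 to -0.48, adjusted p 0.0525 to 0.0807). Gch1 and Pts, enzymes that make tetrahydrobiopterin, a cofactor of nitric oxide synthases, differed by 0.36 and -0.33 in DSS against CON (limma, adjusted p = 0.0480 and 0.0399). Both calls rested on single libraries, that of Gch1 ending without CON replicates 1, 2, 4, 5, 6 or 8 or DSS replicates 6 or 7 (0.28 to 0.37), and that of Pts without CON replicates 1, 2, 4, 5, 6 or 7 or DSS replicates 5, 6 or 7 (-0.26 to -0.34).

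Haem peroxidases and peroxide users were described by 6 genes, of which 3 were tested. The peroxidase Mpo of neutrophils and Epx of eosinophils did not pass the filter. In HMLS all 3 tested were called, 1 higher and 2 lower, in TM none passed, and in DSS 1 fell. Over all genes tested, 17.5% rose and 16.6% fell in HMLS, 26% passed in TM and 13.1% fell in DSS. Pxdn, the peroxidasin of basement membranes, fell by 0.49 in HMLS (limma, adjusted p = 0.0407) and by 0.62 in DSS (0.00930). Lactoperoxidase, Lpo, which uses hydrogen peroxide in secretions, was at 72.9 ± 31.4 FPKM in HMLS and 120.1 ± 24.8 FPKM in CON, a fall of 0.83 (limma, adjusted p = 0.0295). Prdx6, a peroxide-reducing peroxiredoxin with closely similar retrocopies in the mouse genome, which makes its value uncertain, rose by 1.32 in HMLS (limma, adjusted p = 0.00963), with a spread of 519.1 ± 351.3 FPKM in HMLS against 182.6 ± 53.0 FPKM in CON. The Lpo call ended without CON replicate 1 (-0.76), HMLS replicate 6 (-0.44) or HMLS replicate 8 (-0.88), and the HMLS call of Pxdn ended without any of CON replicates 2 to 7 (-0.46 to -0.49), HMLS replicate 7 (-0.46) or HMLS replicate 8 (-0.27).

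Cytokines, receptors and transcription factors of signals that act on Duox2 or Nos2 formed a list of 22, with 18 tested. Not every gene in it is an inducer of both. In HMLS 9 rose, in TM 9 rose and in DSS 10 rose, and none fell in any of them, with median differences of 0.43, 0.56 and 0.50. The share of all genes that rose was 17.5% in HMLS, 14.3% in TM and 14% in DSS. Tnf, an inducer of both genes, was at 2.88 ± 0.870 FPKM in HMLS, 5.79 ± 2.63 FPKM in TM, 6.01 ± 1.76 FPKM in DSS and 1.41 ± 0.509 FPKM in CON (SD). Its rises were 0.69 in HMLS, 1.45 in TM and 1.53 in DSS (limma, adjusted p = 0.00987, 0.000308 and 0.000317). Stat3, which signals for interleukin 22 and interleukin 6, rose by 0.62, 0.89 and 0.90 in HMLS, TM and DSS (limma, adjusted p = 0.00107, 6.5e-05 and 0.00102).

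Ifngr1, a subunit of the interferon gamma receptor, rose by 0.78, 0.63 and 0.67 in HMLS, TM and DSS (limma, adjusted p = 0.00114, 0.000737 and 0.00234). Cebpb, a transcription factor of the Nos2 promoter, rose in TM and DSS by 0.91 each (limma, adjusted p = 0.00688 and 0.00243) and was at 0.56 in HMLS, where it did not pass (0.136). The other genes called in HMLS were the NF-kappaB regulator Nfkbiz, the flagellin receptor Tlr5, the adaptor Myd88, the interleukin 22 receptor Il22ra1, the NF-kappaB subunit Rela and the interleukin 4 receptor Il4ra, at 0.42 to 0.65. In DSS all 6 of these were called as well, at 0.44 to 0.91. In TM the others were Il4ra at 0.996, Il22ra1, Nfkbiz, Rela and Myd88, at 0.50 or more. Single libraries decided 4 of the HMLS calls: without HMLS replicate 3 those of Il4ra (0.31) and Rela (0.31) ended, without HMLS replicate 6 that of Il22ra1 (0.57), and without HMLS replicate 8 those of Il22ra1 (0.57), Il4ra (0.50), Myd88 (0.37) and Rela (0.35). Upper quartile scaling also ended the HMLS calls of Il4ra (0.42) and Rela (0.32) (limma, adjusted p = 0.0644 and 0.0573). With all 4 groups in one fit that of Il4ra ended too (0.52, adjusted p = 0.0643). With the share of mapped reads as a covariate, the HMLS calls of Tnf (0.50), Il22ra1 (0.51), Il4ra (0.41), Rela (0.37) and Nfkbiz (0.40) ended (limma, adjusted p 0.121 to 0.171), and so did those of Rac2 (-0.90), Lpo (-0.65), Pxdn (-0.55), Prdx6 (0.80) and Slc7a1 (0.47), given above (adjusted p 0.0549 to 0.190). In DSS the covariate ended the call of every called gene of the 4 lists (limma, adjusted p 0.0781 for Tlr5 to 0.901 for Gch1). Among them were Rac1 (0.56), Otc (-0.66), Tnf (1.37), Stat3 (0.60), Ifngr1 (0.60) and Cebpb (0.84). No gene of the 4 lists passed among the colitis groups, and the interferon gamma, interleukin 17, interleukin 22 and interleukin 13 genes lay below the filter in DSS against CON.

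The genes whose values followed each oxidase most closely within groups were found among 12919 genes over the 22 libraries, members left out, by the Pearson r of deviations from group means. Around Duox2 they were Rdh18-ps (r = 0.823), Arhgef10l (0.796), Pla2g5 (0.789) and Efcab5 (0.783). Around Nos2 they were Steap4 (0.775), Csf1 (0.773), Efcab5 (0.765) and Gon4l (0.759), of which Steap4 kept an r of 0.604 without the 2 libraries farthest in Nos2. Around Nox1 they were Rims4 (0.845), S100a14 (0.823), Ube2f (0.812) and Slc1a4 (0.785). Around Cybb they were Cd84 (0.906), Plek (0.881), Csf2rb (0.879) and Nckap1l (0.877). These are the highest of many values, so they are given as a description with no test.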

How the data were processed

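RNA of 22 colon samples was extracted with Trizol and made into TruSeq Stranded Total RNA libraries, per the labels' protocols. The authors deposited 1 expression table, whose values were read as FPKM because the submitters' processing notes name Cufflinks 2.2.0, with bcl2fastq 2.20, Bowtie, TopHat2 2.0.13 and mm10. The table names no unit, and the reads behind a gene's value are unknown. Per library, read counts, mapped read counts and the percent mapped were deposited by the authors too. Because FPKM is relative to a library's total, abundant genes that rise pull down the rest.

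Differences of log2(FPKM + 1) came from limma 3.58.1 (R 4.3.3, intensity trend, robust), for genes that reached 1 FPKM in 4 or more of the libraries fitted, and were called at a Benjamini-Hochberg adjusted p under 0.05 over all genes. Comparisons with CON used their own 2 groups, and the 3 colitis groups shared a fit. The scripts were tested on simulated data. Groups came from the labels. The labels do not say that libraries are separate mice, so p-values measure the spread between libraries. The 8 genes, 4 pathway lists and 8 marker lists were chosen with earlier results of these data known, and 1 gene of the oxidase partner list is not reported here. Named were all 8 genes, up to 4 called genes per pathway list in DSS against CON, called list genes in other comparisons, and the 4 genes most like Duox2, Nos2, Nox1 and Cybb. Correlations used 100000 permutations. Library measures used SciPy 1.17.1. Positions are those of GENCODE M21, and 7 of 8 genes matched RefSeq promoters.

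Same-numbered libraries of TM and DSS, by the replicate numbers of the titles, had an r of their deviations of 0.432, 0.253 and 0.137 over 3 pairs. Only TM replicate 5 matched its own number best. A block for them changed no call there, where it could end none because no gene had passed. Alternatives were a pseudocount of 0.1 FPKM, no filter, upper quartile scaling, all 4 groups in one fit, a replicate block, mapped percent as a covariate, both together, and each library left out in turn. Precision is limited by 4 to 8 libraries a group.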

Additional observations from a re-analysis of the deposited data

Results flagged for a closer look

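Single libraries stood apart in 2 of the 32 groups of values checked (8 genes in 4 groups), where chance gives about 1 in 20. Nos2 in TM replicate 5 was at 28.2 FPKM, while the other 4 TM libraries lay at 3.88 to 8.58 FPKM. The same library held the most Duox2 of its group, 140.6 FPKM, and the most Duoxa2, 69.2 FPKM. Nox1 in DSS replicate 6 was at 4.59 FPKM, while the other 4 DSS libraries lay at 0.689 to 1.59 FPKM and CON had a median of 4.45 FPKM. DSS replicate 6 also had the lowest Cybb of the DSS group, 0.686 FPKM, and the lowest summed neutrophil markers of that group, 3.23 FPKM.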

How the results depend on the processing

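Values below are differences of log2(FPKM + 1) unless named otherwise, and their causes were not tested. With a replicate block, called genes numbered 2176 in DSS against CON, 753 in HMLS against CON and 2000 in TM against CON, and called members 3 and 1 in DSS and HMLS. The block ended the calls of Nox1, Noxo1 and Cybb in DSS (adjusted p = 0.0846, 0.0650 and 0.104) and of Cybb in HMLS (0.0780). Among list genes in HMLS it ended those of Ncf1, Rac2, Otc, Slc7a1, Ddah2, Pxdn, Lpo, Tnf, Stat3, Nfkbiz, Tlr5, Myd88, Il22ra1, Rela and Il4ra (limma, adjusted p 0.0648 to 0.202). In DSS it ended those of Ddah2, Gch1, Pts and Pxdn, and in TM those of Ddah2 and Slc7a1. The labels do not say whether the numbers pair libraries, and the r of same-numbered libraries does not settle it. That r ran from -0.201 to 0.324 in DSS against CON. It ran from -0.108 to 0.0707 in HMLS against CON and from -0.00341 to 0.203 in TM against CON. DSS replicate 1 and TM replicate 5 matched their own number best among the CON libraries, and the others did not. With the mapped percent as a covariate, 26 genes and 0 members were called in DSS against CON, and with the block as well 0 and 0, 27 and 0 in HMLS against CON, and 1839 genes in TM against CON. Without the filter, the calls of Gch1 and Pts in DSS and of Pxdn in HMLS ended (limma, adjusted p = 0.0684, 0.0597 and 0.0640). Upper quartile scaling ended that of Gch1 in DSS (0.121), and all 4 groups in one fit that of Pxdn in HMLS (0.0515).

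Signs turned as follows. In HMLS against CON, Cyba was -0.074 with upper quartile scaling, Duox2, Duoxa2 and Cyba were -0.51, -0.21 and -0.060 with the covariate, and -0.43, -0.053 and -0.13 with block and covariate. In TM against CON, Noxa1 was -0.028 with upper quartile scaling. In DSS against CON, Gch1 was -0.052 with the covariate. In HMLS against DSS, Noxa1 and Cyba were 0.16 and 0.013 with the block, and with block and covariate Duox2, Duoxa2, Nos2, Noxa1, Noxo1 and Cyba were 0.59, 1.69, 1.20, 0.86, 0.55 and 0.39. In TM against DSS, Nox1 was -0.047 with the block and -0.095 with both. The within-group r of Cybb with Cyba was 0.00639 with a pseudocount of 0.1 FPKM, 0.0211 with upper quartile scaling and 0.127 without the 2 farthest libraries, and that of Nox1 with Cyba was -0.0303 without them.

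With each library left out in turn, called genes ranged from 0 to 1 in HMLS against DSS and from 0 to 3 in HMLS against TM, the highest in both without HMLS replicate 3. Cyba ranged from -0.13 to 0.13 in HMLS against CON, Noxa1 from -0.13 to 0.12 in TM against CON and Nox1 from -0.32 to 0.11 in HMLS against DSS. In TM against DSS, Duox2 ranged from -0.27 to 0.28, Duoxa2 from -0.17 to 0.60, Nos2 from -0.22 to 0.60, Nox1 from -0.0196 to 0.54 and Noxo1 from -0.13 to 0.16. Of 2091 alternative differences of named genes, 1842 kept direction and side of the threshold, 205 lost the call, 5 gained it and 39 changed sign.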
